A study of Mus musculus with 4 samples.

Results

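The Hox genes encode homeodomain transcription factors that pattern the body axis, and in mammals they lie in gene clusters on different chromosomes. Genes of a cluster are numbered by paralog group, from the anterior genes with low numbers to the posterior genes with high numbers. Their order along the chromosome follows their use along the embryo. In differentiated cells, unused Hox genes are kept silent by Polycomb complexes, while Trithorax (MLL) complexes keep the used ones active, and in blood the genes of several groups are known for their role in stem and progenitor cells. Hox proteins bind DNA together with the TALE homeodomain proteins of the Pbx, Meis and Pknox families.

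The members described here are the 39 protein-coding genes of the mouse Hoxa, Hoxb, Hoxc and Hoxd clusters in the GENCODE annotation of GRCm38, of 21938 protein-coding genes in all. They were taken by symbol. Each gene was given the peaks that overlapped its body or 2 kb on either side. Peaks anywhere between the outer genes of a cluster were also collected. The clusters lie on chromosome 6 (52153590 to 52262880, Hoxa, 11 genes), chromosome 11 (96192316 to 96370256, Hoxb, 10 genes), chromosome 15 (102919103 to 103038852, Hoxc, 9 genes) and chromosome 2 (74666310 to 74767142, Hoxd, 9 genes), with 2 kb added at both ends.

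Open chromatin was measured by ATAC-seq, in which the Tn5 transposase inserts adapters into accessible DNA. The cells were unstimulated Foxp3+ CD4+ Treg cells, sorted by the RFP of a Foxp3 Rfp/Rfp reporter. They came from lymph nodes (LNs) of female C57BL/6 mice of 6 to 8 weeks. For these cells the paper's methods describe no gate on markers of naive cells. One group was WT and the other Il2ra mut/mut, which carries a point mutation in CD25, the high affinity chain of the IL-2 receptor, and the reporter is shared by both. Each group had 2 libraries of 50000 cells, and the number of mice behind a library is not given in the sources used here. The question was whether reduced IL-2 signals change the open chromatin of Treg cells.

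The deposited lists held between 112569 and 142732 peaks per library, and no filter for reproducibility between replicates was applied to them here. The median peak rested on 8 to 10 reads at its summit and the lowest on 5 or 6, so peaks near the floor carry a large counting error. A peak over the start of Il2ra was called in every library, which does not check the genotype labels, since a point mutation leaves the locus in place. Within 1 kb of a TSS, 8 of 9 Treg and CD4 T cell markers had a peak in every library, Foxp3 and Cd4 among them, and Trac, whose annotated start is that of the constant segment, had none. None of the 5 B cell markers or the 6 myeloid markers did. On gene bodies, Cd79a, Pax5 and Spi1 had peaks in every library, while Ms4a1 and Csf1r had none in any. Within 1 kb of a TSS, Cd79b had a peak in WT replicate 2 and Il2ra mut/mut replicate 2. The other 4 B cell markers and all 6 myeloid markers had no TSS peak in any library. Of the others, Cd8b1 (1 of 2 CD8 T cell markers) and none of 4 NK cell markers had one in every library. Among stromal and endothelial markers, Col1a1 and Pecam1 (2 of 7) did. The NK cell marker Gzma and the stromal markers Pdgfra and Col1a2 had one in 3 libraries. Eomes (NK cell) had one in 2 and Cdh5 (endothelial) in 1, and the remaining ones had none. Whether other cells added to the Hox peaks was not tested.

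A peak on the gene or within 2 kb was called in every library for 15 of the 39 Hox genes (38.5%), beside 63.8% of all protein-coding genes. Within single libraries the share was 51.3% and 59% (WT replicates 1 and 2) against 43.6% and 69.2% (Il2ra mut/mut replicates 1 and 2), beside 69.4%, 70.8%, 68.9% and 72.7% of all. No peak was called in any library for 11 genes (28.2%), beside 22.1% of all. Gene starts (TSS) were those of the basic transcript set of the annotation. A peak within 1 kb of a TSS was called in every library for 7 Hox genes (17.9%), beside 52% of all, and in no library for 19 (48.7%), beside 35.8% of all. The genes are short, with a median length of 3.49 kb against 17.4 kb over all protein-coding genes, which leaves less sequence in which a peak on the body can fall, whereas the TSS window does not depend on length. With the starts of every annotated transcript, chosen after seeing the data, Hoxa7 and Hoxc6 were added and the count was 9 (23.1%), beside 54.1% of all.

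The genes with no peak in any library were Hoxa2, Hoxa5 and Hoxa6, Hoxb1 and Hoxb13, Hoxc4, Hoxc8, Hoxc11 and Hoxc12, and Hoxd10 and Hoxd11. They came from all 4 clusters and from the anterior, central and posterior ends alike, with 3 of 12 anterior genes (groups 1 to 4), 3 of 11 central genes (groups 5 to 8) and 5 of 16 posterior genes (groups 9 to 13). Absence from a list says that no peak reached the calling threshold at this depth and does not show closed chromatin.

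The genes with a TSS peak in every library included Hoxa4, Hoxa10, Hoxa13, Hoxb4, Hoxb9 and Hoxc9. Hoxa4 and Hoxb4 belong to the same paralog group, as do Hoxb9 and Hoxc9. By cluster these were 4 of 11 Hoxa genes, 2 of 10 Hoxb genes, 1 of 9 Hoxc genes and none of 9 Hoxd genes. By position they were 3 of 12 anterior, none of 11 central and 4 of 16 posterior genes. The absence of central genes holds for the basic transcript set only. Hoxa7 and Hoxc6, which the starts of every annotated transcript added, are both central. Between libraries the number of Hox genes with a TSS peak was 11 and 14 (WT replicates 1 and 2) against 11 and 16 (Il2ra mut/mut replicates 1 and 2), so the replicates of a genotype differed by more than the genotypes did.

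**Figure D1:**
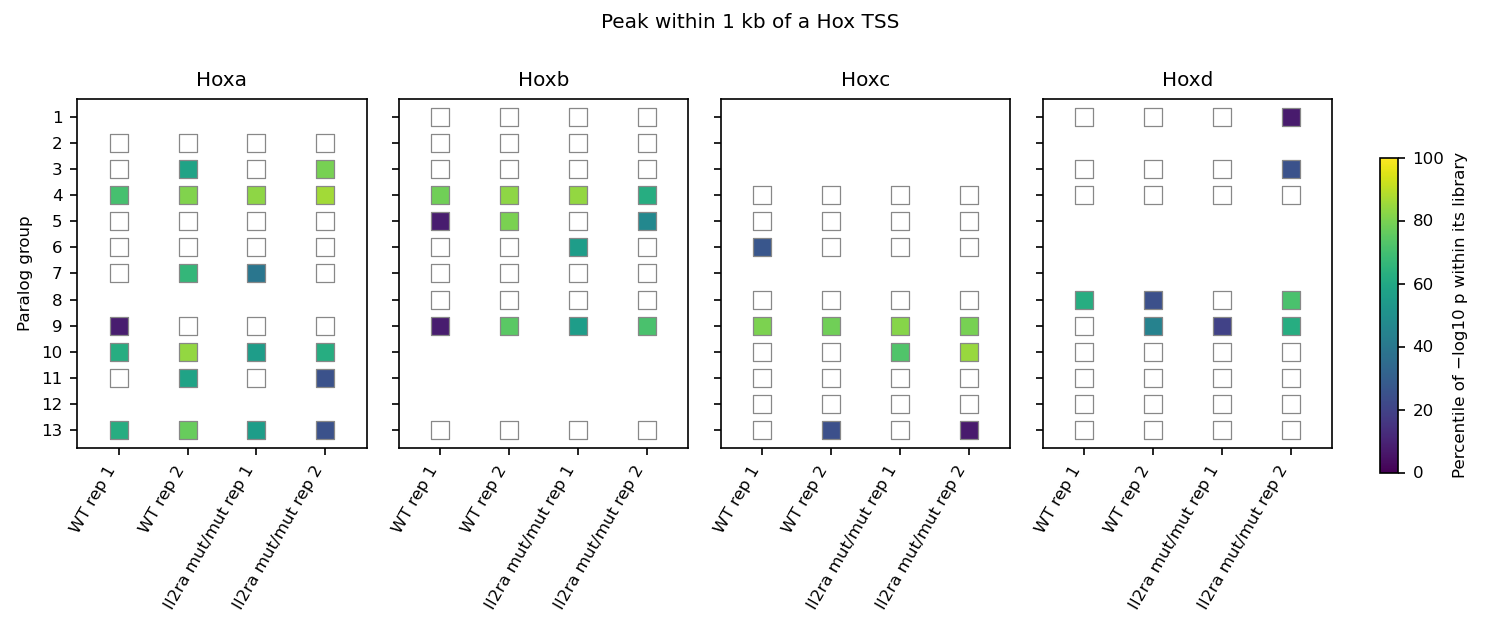
Peaks within 1 kb of a TSS for Hox genes, by paralog group (vertical axis), cluster (panels) and library (horizontal axis). Colour gives the highest percentile of −log10 p within its library, white squares mark genes with no such peak, and gaps mark groups that a cluster lacks or that are not shown. Rows filled in all 4 libraries are seen in the Hoxa, Hoxb and Hoxc panels, Hoxa4, Hoxb4 and Hoxc9 among them, and for no Hoxd gene.

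The remaining genes had peaks in some libraries or away from their starts. Hoxb5 and Hoxd8 had a TSS peak in 3 libraries and lacked it in Il2ra mut/mut replicate 1. Hoxd9 had one in 3 libraries and lacked it in WT replicate 1. Hoxa3, Hoxa7, Hoxa11, Hoxc10 and Hoxc13 had one in 2 libraries, and Hoxa9, Hoxb6, Hoxc6, Hoxd1 and Hoxd3 in 1. Hoxb2, Hoxb3, Hoxb7, Hoxb8, Hoxc5, Hoxd4, Hoxd12 and Hoxd13 had peaks only away from their starts. Several annotated genes span others, Hoxa3 over Hoxa4, Hoxa5 and Hoxa6, Hoxc5 over Hoxc6, Hoxc8 and Hoxc9, and Hoxd3 over Hoxd4, and a peak in such a stretch was counted for each gene it overlapped.

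Overlapping peaks of the 4 libraries (1 bp or more) were merged into regions, and the clusters held 56 regions of 271773 in the genome. Of these, 12 (21.4%) were called in every library, beside 14.1% of all regions. Another 24 (42.9%) were called in 1 library, beside 61.4% of all. The Hox regions were thus shared between libraries somewhat more often than the average region, a description over regions that lie side by side. Peak density over the clusters was 4.73 and 7.29 peaks per 100 kb (WT replicates 1 and 2) against 4.53 and 7.88 (Il2ra mut/mut replicates 1 and 2). This was between 1.01 and 1.57 times the density of the genome. The genome was taken at full length, with the Y chromosome and assembly gaps included, which lowers its density. The lowest ratio therefore does not show an excess. Replicate 2 had more cluster peaks than replicate 1 in each genotype. Hoxa was the densest cluster in 3 libraries, with 7.32 to 14.6 peaks per 100 kb, and Hoxd, with 9.92, in Il2ra mut/mut replicate 2.

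**Figure D2:**
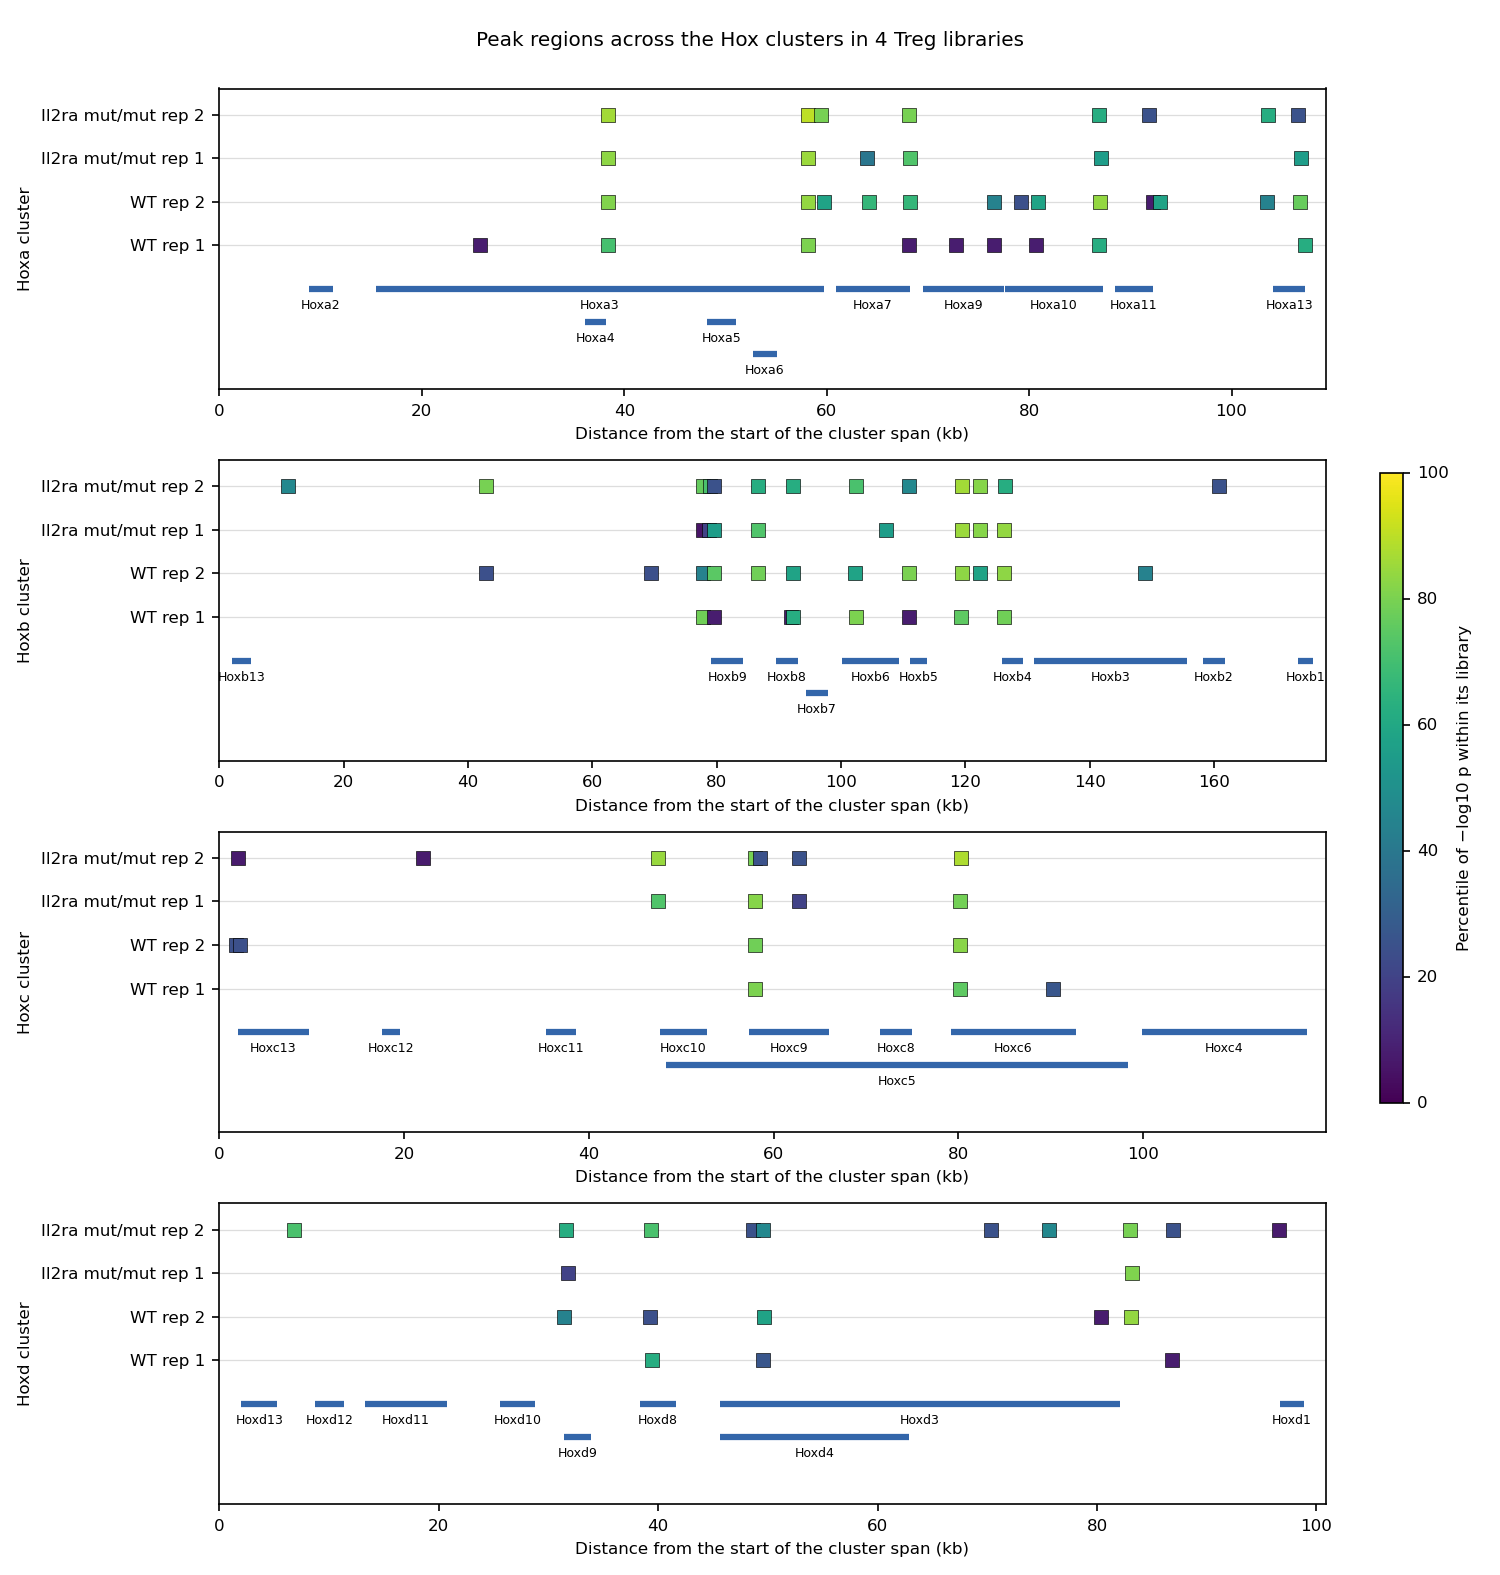
Peak regions along the Hoxa, Hoxb, Hoxc and Hoxd clusters, with distance in kb from the start of the cluster span on the horizontal axis and 1 row per library. Each square is the summit of the highest peak of a region in that library, coloured by its percentile of −log10 p, and blue bars are gene bodies. Columns of 4 squares are regions called in every library, none of which lies in Hoxd.

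Of the 12 regions called in every library, 7 lay within 1 kb of a TSS of the basic set and 5 lay further away. The summit sequences of 3 of the latter are shown because they carry open chromatin of the clusters that these starts do not. Each is 200 bases of the plus strand of GRCm38 (the coordinates of mm10) centred on the summit, with CpG dinucleotides in capitals. The first, at chr6:52211669-52211868, lies between Hoxa6 and Hoxa7 in an intron of the long Hoxa3 transcript, 1346 bp downstream of its start. The second, at chr6:52221659-52221858, lies 3048 bp upstream of the nearest basic Hoxa7 start and over the annotated 5′ end of that gene, where a coding transcript outside the basic set starts 95 bp from the summit. The third, at chr15:102999267-102999466, lies between the coding transcripts of Hoxc8 and Hoxc6, inside longer non-coding transcripts of Hoxc5 and Hoxc6, one of which starts 1110 bp from the summit.
Hoxa6-Hoxa7: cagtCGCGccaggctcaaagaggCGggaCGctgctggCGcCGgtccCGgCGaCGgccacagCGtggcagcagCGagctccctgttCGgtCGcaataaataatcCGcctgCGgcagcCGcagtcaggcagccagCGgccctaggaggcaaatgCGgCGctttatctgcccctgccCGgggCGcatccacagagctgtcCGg
Hoxa7 5′ end: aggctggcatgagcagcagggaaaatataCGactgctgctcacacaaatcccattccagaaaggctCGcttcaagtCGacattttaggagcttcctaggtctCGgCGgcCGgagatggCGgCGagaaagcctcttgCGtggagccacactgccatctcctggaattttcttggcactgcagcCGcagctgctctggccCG
Hoxc8-Hoxc6: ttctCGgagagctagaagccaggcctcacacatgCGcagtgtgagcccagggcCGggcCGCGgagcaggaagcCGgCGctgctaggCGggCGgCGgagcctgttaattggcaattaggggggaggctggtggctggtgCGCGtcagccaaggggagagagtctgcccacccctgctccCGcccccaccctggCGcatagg

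These windows held 22, 11 and 14 CpG dinucleotides. Over the 5 regions called in every library away from a basic TSS the median was 11 CpG per 200 bases and 61.5% GC, beside 3 CpG and 49.5% GC over 26953 such regions in the genome. Over the 7 regions at a TSS it was 12 CpG and 58.5% GC, beside 16 CpG and 64.5% GC over 11328. The Hox regions away from basic starts therefore had a base composition nearer to that of gene starts than to that of other distal regions, in clusters that are CpG-rich throughout, with 20.8 to 29.6 CpG per kb against 8.26 in the genome. Repeats masked in the reference took up 13.4 to 24.5% of the clusters and 36.4% of the genome.

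Short motif words were searched on both strands in these windows. For the CTCF core only the words AGGGGGC and AGGTGGC were searched, and other forms of the core were not counted. These words were found in 1 of the 12 regions called in every library (8.33%), beside 12.5% of all 38281. That region was the one over the Hoxc9 TSS. The ETS word CCGGAAG, the RUNX word TGTGGTT and the HOX-PBX word TGATTNAT were found in none of the 12, beside 6.77%, 7.85% and 1.6% of all. With 12 windows, such shares are a description of these letters.

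The region between Hoxa6 and Hoxa7 had the highest fold of the clusters in Il2ra mut/mut replicate 2 and shared the highest fold in each of the other libraries. Its fold enrichment over background was 7.09 and 10.1 (WT replicates 1 and 2) against 8.97 and 12.2 (Il2ra mut/mut replicates 1 and 2). These stood at the 80.3, 83.8, 84.8 and 90.1 percentiles of −log10 p of their libraries. The value was shared with the Hoxc9 TSS and an intron of Hoxb6 in WT replicate 1, with the Hoxa10 TSS and Haglr in WT replicate 2, and with the region between Hoxb5 and Hoxb4 in Il2ra mut/mut replicate 1. It held the only Hox peak above the 90th percentile of a library.

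The Hoxc9 TSS region had folds of 7.09 and 7.58 (WT) against 7.62 and 6.32 (Il2ra mut/mut). Its summits lay within 4 bp of each other in the 4 libraries, the narrowest range of the 12.

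The region between Hoxb5 and Hoxb4, 6552 bp upstream of the Hoxb4 start, had folds of 6.08 and 9.60 (WT) against 8.97 and 8.75 (Il2ra mut/mut). The region between Hoxc8 and Hoxc6 had folds of 6.08 and 9.09 (WT) against 6.73 and 9.72 (Il2ra mut/mut). The Hoxa4 TSS region had folds of 5.57 and 8.59 (WT) against 8.07 and 8.75 (Il2ra mut/mut). In each of these the lowest value was that of WT replicate 1 and the folds of the groups overlapped.

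The Hoxb4 TSS region had folds of 6.58 and 9.60 (WT) against 8.52 and 4.86 (Il2ra mut/mut). The Hoxa10 TSS region had 5.07 and 10.1 (WT) against 4.93 and 4.86 (Il2ra mut/mut). The Hoxa13 TSS region had 5.07 and 7.07 (WT) against 4.93 and 3.89 (Il2ra mut/mut). At Hoxa10 and Hoxa13 both Il2ra mut/mut values lay below both WT values, as in 17.3% of all regions called in every library, while at Hoxb4 the groups overlapped. The summits of the Hoxa13 region spread over 682 bp, the widest range of the 12, so its folds were read at different positions. At Hoxa10 the nearest values of the genotypes, 5.07 and 4.93, rested on 9 and 10 reads.

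Another 3 regions reached the lowest percentiles of the 12 in any single library. The region at the 5′ end of Hoxa7 had folds of 3.55 and 5.56 (WT) against 5.83 and 6.32 (Il2ra mut/mut), both Il2ra mut/mut values lying above both WT values, as in 12.2% of all regions. The region 1392 bp upstream of the Hoxb9 start had folds of 6.58 and 4.55 (WT) against 3.59 and 5.83 (Il2ra mut/mut). The Hoxb9 TSS region had folds of 3.55 and 6.57 (WT) against 4.93 and 3.89 (Il2ra mut/mut). The lowest of these values rested on 6 or 7 reads.

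**Figure D3:**
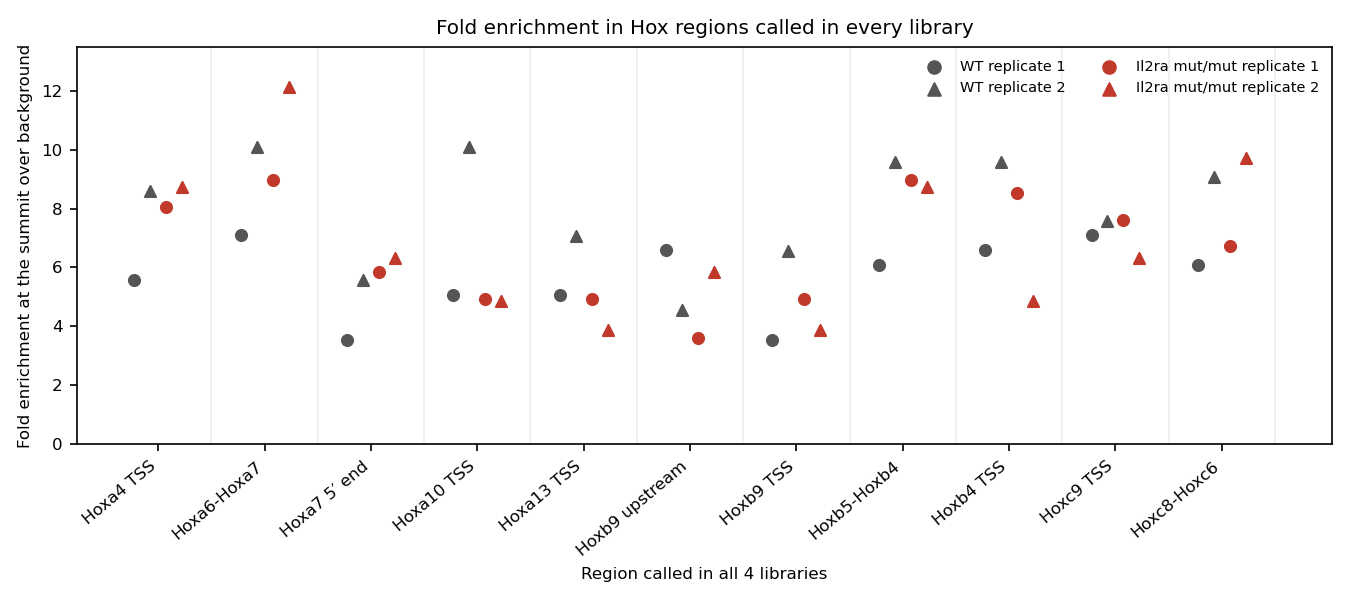
Fold enrichment at the summit over background (vertical axis, linear from 0) in Hox regions called in every library, with 1 point per library, grey for WT and red for Il2ra mut/mut, circles for replicate 1 and triangles for replicate 2. All values lie between 3.55 and 12.2, and both Il2ra mut/mut points lie below both WT points at the Hoxa10 and Hoxa13 TSS (as in 17.3% of all regions) and above them at the 5′ end of Hoxa7 (as in 12.2% of all).

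Compared with other regions called in every library, the Hox regions ranked lower. Their median percentile was 75.3 and 81.0 (WT replicates 1 and 2) against 80.4 and 79.7 (Il2ra mut/mut replicates 1 and 2). Over all 38281 it was 81.9, 84.5, 84.0 and 86.3. Between 29.6% and 36.8% of all such regions stood above the 90th percentile of their library, against 1 Hox region in 1 library. The contrast was larger for genes with a TSS peak in every library, where the median fold of the 7 Hox genes was 5.57, 8.59, 7.62 and 5.35 in the same order and that of all 11417 genes was 19.2, 26.8, 22.4 and 22.8.

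Between genotypes, no Hox region passed the test. Log2 fold enrichment was quantile-normalized and fitted with limma over the 38281 regions called in every library, and 0 of 12 Hox regions and 0 of all regions (0%) had a Benjamini-Hochberg adjusted p of at most 0.05. At an unadjusted p under 0.05 there were 3274 regions (8.55%) in all and none of the Hox regions. The Hox region with the lowest p was that at the 5′ end of Hoxa7, with a log2 difference (Il2ra mut/mut minus WT) of 0.50 ± 0.25 (SE, n = 2 per genotype, limma adjusted p = 0.612). The difference was 0.40 ± 0.25 (limma adjusted p = 0.674) between Hoxa6 and Hoxa7, -0.47 ± 0.28 (limma adjusted p = 0.657) at Hoxa10 and -0.40 ± 0.21 (limma adjusted p = 0.63) at Hoxa13. The median log2 difference was 0.12 over the 12 Hox regions and 0.00 over all. With 2 libraries against 2, an exact two-sided permutation test of a single value cannot go below 0.333.

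On normalized values, both Il2ra mut/mut libraries stood above both WT libraries in 5 of the 12 Hox regions, beside 18.2% of all regions, and below them in 2, beside 17.5% of all. On the folds as deposited these counts were 1, beside 12.2% of all, and 2, beside 17.3% of all. The number of Hox regions whose genotypes do not overlap thus depended on the scaling.

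Some regions were called in both libraries of 1 genotype and in neither of the other. There were 2 WT regions (3.57%, beside 2.7% of all regions) and 4 Il2ra mut/mut regions (7.14%, beside 3.56% of all). Both WT regions lay in Hoxa. One covered Mir196b, in the part of the annotated Hoxa9 gene upstream of its coding transcripts, with folds of 3.55 and 4.55, and the other a coding exon of Hoxa10, with folds of 3.55 and 5.05. Both rested on 6 reads in WT replicate 1, near its floor of 5, and neither remained when peaks with a −log10 q under 3 were left out.

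Of the 4 Il2ra mut/mut regions, the strongest lay 214 bp upstream of the Hoxc10 start, with folds of 5.83 and 7.78, the 72.6 and 84.5 percentiles of their libraries, from 12 and 15 reads. The others lay 294 bp upstream of the Hoxb9 start (folds of 4.04 and 5.35), in a coding exon of Hoxc9 (4.04 and 3.89) and in the 5′ UTR of Hoxd9 (4.04 and 4.86). In WT replicate 2 a separate peak with a fold of 4.55 ended 13 bp from the Hoxd9 region, so the start of Hoxd9 was not free of peaks in WT. A region with no peak in a genotype has no value there, and no test of these differences was made.

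The Hoxd cluster had no region called in every library. Its regions in 3 libraries, chosen for description after their values were seen, covered the non-coding gene Haglr (folds of 10.1 in WT replicate 2, 7.18 and 6.32 in Il2ra mut/mut), a coding exon of Hoxd8 (5.07 and 4.04 in WT, 5.35 in Il2ra mut/mut replicate 2) and the Hoxd3os1 antisense gene (4.05 and 5.05 in WT, 4.37 in Il2ra mut/mut replicate 2). WT replicate 1 lacked the first, and Il2ra mut/mut replicate 1 lacked both of the others.

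The clusters also hold microRNA genes, and their mature sequences are shown because the only one under a peak shares its seed with others that had none. The sequences are those of RefSeq (GRCm38.p6), with the seed, bases 2 to 8, in capitals.
miR-196b-5p: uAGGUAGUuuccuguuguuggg
miR-196a-5p: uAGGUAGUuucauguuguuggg
miR-10a-5p: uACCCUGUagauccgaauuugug
miR-10b-5p: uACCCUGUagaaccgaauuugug

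The miR-196 sequences share the seed AGGUAGU and the miR-10 sequences the seed ACCCUGU. Mir196b (chromosome 6, 52230081 to 52230165, minus strand) lay under the Hoxa region called in both WT libraries. Mir196a-1, Mir196a-2, Mir10a, Mir10b and Mir615 had no peak within 1 kb of their annotated start in any library. Of 9 non-coding genes of the clusters looked at, 1 had a peak there in every library, while Hotair and Hottip, RNAs transcribed from Hoxc and beside Hoxa13, had none.

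The genes that work with or on the Hox clusters were open at their starts. A TSS peak was called in every library for 11 of 11 PRC2 genes, 15 of 16 PRC1 genes, 8 of 8 MLL complex genes and 8 of 9 TALE cofactors, beside 52% of all protein-coding genes. Among the cofactors, Pknox1 had TSS folds of 64.3, 75.3, 65.9 and 64.2 in the order WT replicate 1, WT replicate 2, Il2ra mut/mut replicate 1, Il2ra mut/mut replicate 2, and Pbx4 had 41.5, 66.2, 58.3 and 61.2. Meis1, a partner of Hox proteins in blood progenitors, was much lower, with 4.05, 11.6, 8.52 and 4.86, and Meis2 had a TSS peak in 1 library. Ezh2, the PRC2 methyltransferase, had TSS folds of 29.9, 41.9, 31.9 and 32.1, and Kmt2a, the MLL methyltransferase, 15.2, 18.7, 19.7 and 17.5. Pcgf2, a PRC1 subunit, lacked a peak in Il2ra mut/mut replicate 2.

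A list of developmental homeobox and paired box genes outside the clusters also stood below the 52% of all genes. A TSS peak in every library was called for 5 of 30, Pax6, Pax9 (a paired box gene with no homeobox), Nkx2-1, Msx1 and Gbx2. In no library was one called for 12 of 30, near the share of 35.8% over all protein-coding genes. None of the 6 ParaHox and Cdx genes had one in every library, and 4 had none at all. Of the 7 genes at the edges of the clusters that the annotation held, Skap2, Skap1, Mtx2 and Cbx5 had a TSS peak in every library, and Evx1, Evx2 and Smug1 had none. Skap2, an adaptor protein gene beside Hoxa, had TSS folds of 32.9, 40.9, 35.9 and 48.6 in the same order, above every peak within the Hoxa cluster.

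**Figure D4:**
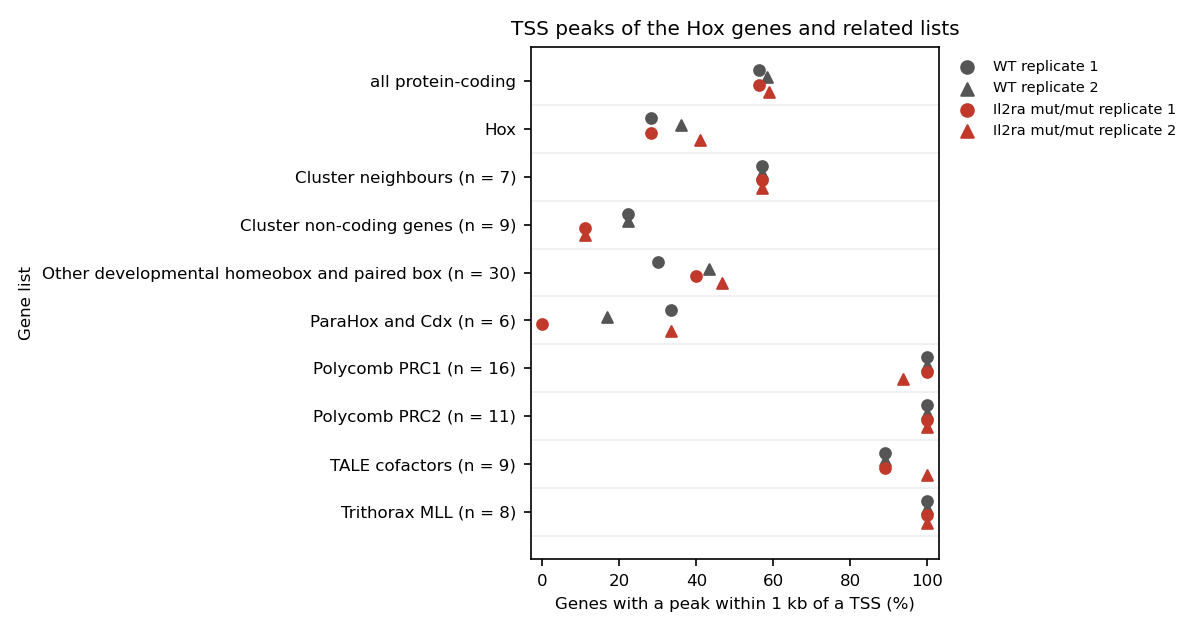
Percent of genes with a peak within 1 kb of a TSS (horizontal axis) for all protein-coding genes, the 39 Hox genes and lists of related genes, with 1 point per library, grey for WT and red for Il2ra mut/mut. The Hox genes lie at 28.2 to 41% in the 4 libraries, all below the 56.3 to 58.9% of all protein-coding genes, while the PRC2 and MLL lists stand at 100%.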

How the data were processed

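ATAC-seq was performed by the authors on 2 WT and 2 Il2ra mut/mut LN Treg libraries. They mapped reads to mm10 with BWA, removed duplicated and mitochondrial reads, shifted reads and called narrow peaks per library with MACS2 (2.1.0, per the labels). The paper then kept peaks reproducible between replicates by an Irreproducible Discovery Rate analysis, and its open chromatin regions are those. That filter was not applied here, so the peaks described are the calls of single libraries and not the regions the paper counted. The deposited lists give, per peak, the fold enrichment ratio over background, the −log10 p and q values, and a score of 10 times −log10 q. A whole number of reads explained the fold of 100% of peaks within a tolerance of 0.02. Library totals are not given in the sources used here, so depth is unknown and no intervals are printed.

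Percentiles were ranked within a library, with ties averaged. Genes were those of GENCODE M21 on GRCm38, which shares the coordinates of mm10. Regions were peaks joined at 1 bp, and a region took its highest value per library. The limma (3.58.1, R 4.3.3) fit used trend and quantile normalization, and the samples are biological replicates per the study's methods. It was tested on simulated data. Where the changes put in were large, the quantile step gave more false calls than the threshold allows, which did not occur with smaller changes or without that step. Other steps used Python (3.11.15) and pandas (2.3.3). Regions named are those called in every library, those in both libraries of 1 genotype only, and any past the limma threshold. Members and lists were chosen with earlier results of these data known. Some items counted among the members and lists are not reported here by name, and the figures omit them.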

Additional observations from a re-analysis of the deposited data

How the results depend on the processing

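Counts of Hox genes or regions are given as main against alternative. The 11 genes with no peak became 6 with 5 kb either side, and the 7 genes with a TSS peak in every library became 12 with a window of 3 kb. With a −log10 q of at least 3, the 2 regions in both WT libraries only became 0. Leaving out each library in turn gave 2 to 11 such regions, the highest without WT replicate 1, then 7 without Il2ra mut/mut replicate 2 and 6 without WT replicate 2, and the 4 regions in both Il2ra mut/mut libraries only became 4 to 14, the highest without Il2ra mut/mut replicate 1, then 7 without WT replicate 2. A single library of a genotype suffices for such a call once the other is left out. Leaving out each library gave 12 to 17 regions called in every remaining library and 15 to 20 genes with a peak in them.

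No Hox region differed between genotypes in limma under any of the 9 alternatives. Over all regions the count of 0 became 311 with median centring (135 higher and 176 lower in Il2ra mut/mut) and 14 with no scaling, and the cause was not tested. On quantile-normalized values, same-numbered libraries did not deviate together (correlation of deviations 0.0123). That scaling removes shifts of a whole library, so the value cannot tell whether such libraries shared a batch. With a replicate block the counts were 0 for Hox and 0 for all regions. Low read numbers at the summits limit what can be told apart.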
